A study of Homo sapiens with 4 samples.

Results

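The 10 genes described here are regulators and effectors of the epithelial-mesenchymal transition (EMT), chosen by name: VIM, SPARC, FN1, CDH1, CDH2, ZEB1, ZEB2, SNAI1, SNAI2 and TWIST1. All 10 were measured, out of 18377 genes that could be named on the arrays. They were read in 4 fractions of Huh7, an established human hepatocellular carcinoma line, sorted by flow cytometry: CD133-positive and CD133-negative cells from one sort, and ALDH-positive and ALDH-negative cells from another. CD133 is the surface protein encoded by PROM1, ALDH stands for aldehyde dehydrogenase, and the series treats the marker-positive cells as cancer stem cells. The labels name no treatment, time or genotype for any fraction and do not say whether the sorts came from separate cultures, so the values describe 1 line and 4 preparations. RNA of each fraction was hybridised to 1 Affymetrix array, so no difference below has a replicate check or a p-value. Differences are on the log2 scale, positive minus negative fraction within a sort.

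EMT is the programme by which epithelial cells give up their junctions and polarity and take on the shape, cytoskeleton and matrix of migratory mesenchymal cells. The SNAI, ZEB and TWIST transcription factors drive it: they repress the epithelial adhesion gene CDH1 and are accompanied by higher VIM, FN1, CDH2 and SPARC. The microRNAs of the miR-200 family hold ZEB1 and ZEB2 down in epithelial cells. In liver cancer the programme is known for its part in invasion. FN1 is also a normal secreted product of hepatocytes and CDH2 a normal hepatocyte cadherin, so neither is a purely mesenchymal gene in this tissue.

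Among the effectors, VIM and SPARC were about 2-fold higher in CD133-positive than in CD133-negative cells, and CDH2 was 1.66-fold higher, while FN1 and CDH1 hardly differed. None of the 5 transcription factors was higher in CD133-positive cells except SNAI1 under other scalings, by at most 0.02, and the epithelial gene CDH1 was not lower. Of these factors ZEB1 and ZEB2 were below the expression floor on both arrays of that sort, and SNAI1 and TWIST1 hardly differed. In the ALDH sort no gene of the 10 reached 2-fold, and SPARC differed most, 1.53-fold lower in ALDH-positive cells. Of the 8 genes above the expression floor in the CD133 sort, 2 reached 2-fold above and 1, the factor SNAI2, reached 2-fold below CD133-negative cells, with its dimmer array under the floor. The floor was a log2 value of 4.98, the median of all values, and a gene counted as above it in a sort if at least 1 of its arrays was that bright. Over the 11591 genes above the floor in that sort, 0.716% reached 2-fold in the first direction and 0.164% in the second. In the ALDH sort 0 of 8 reached 2-fold in either direction, beside 0.278% of 11879 genes higher and 1.30% lower in ALDH-positive cells. The 10 genes were chosen with earlier results of these data known, so these counts do not show enrichment. The median difference of all 10 genes was 0.02 for CD133 and -0.10 for ALDH, beside -0.01 and 0.03 over all 18377 genes.

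**Figure D1:**
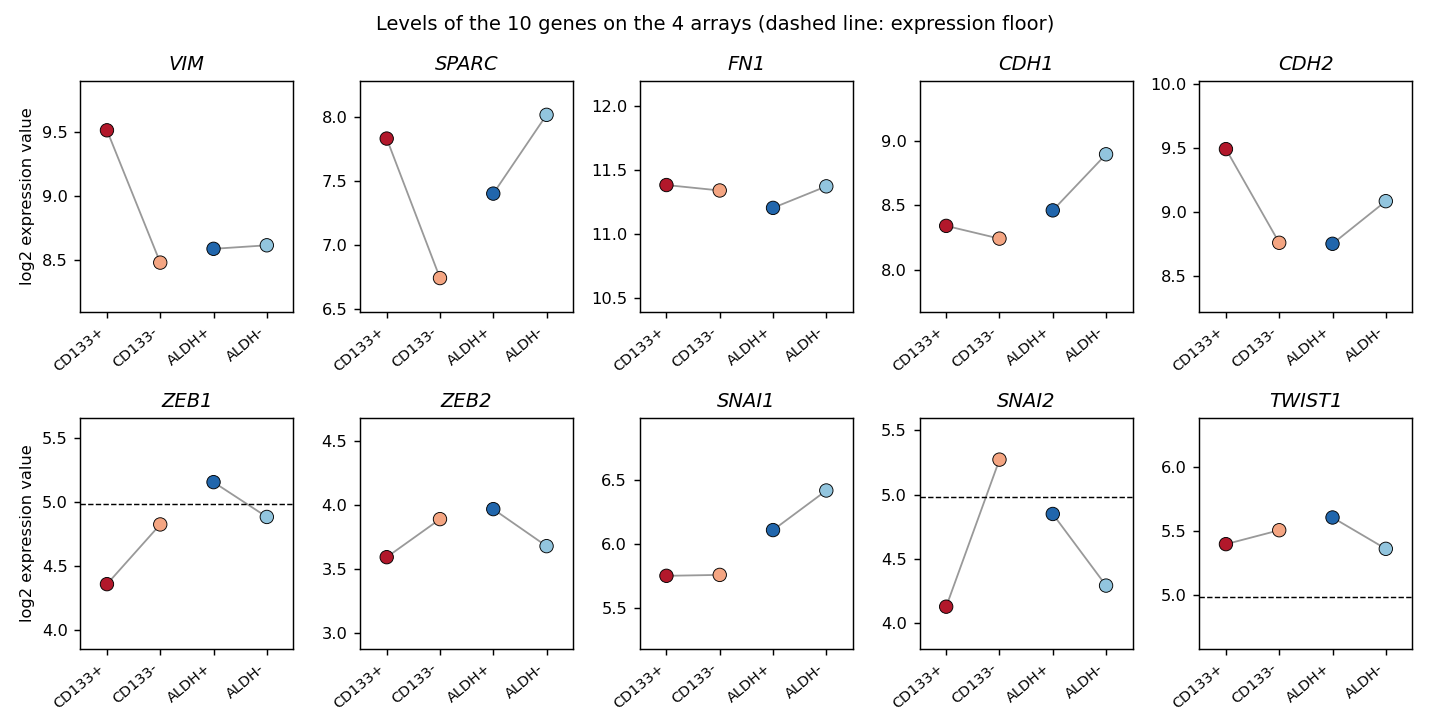
Log2 expression value of each of the 10 genes (y axis, the same span of log2 units in every panel) on the 4 arrays (x axis, 1 point per array, a grey line joining the fractions of a sort). The dashed line is the expression floor of 4.98 where it falls inside a panel. VIM stands out on the CD133-positive array alone, SPARC is lowest in CD133-negative cells, and SNAI2 passes the floor on the CD133-negative array only.

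VIM encodes vimentin, the intermediate filament protein of mesenchymal cells. Its log2 level was 9.51 in CD133-positive and 8.48 in CD133-negative cells, and 8.59 in ALDH-positive cells and 8.62 in ALDH-negative cells. The CD133-positive array was therefore the high one, and the other 3 arrays lay between 8.48 and 8.62. The difference was 1.03 (2.04-fold) in the CD133 sort, rank 79 from the top among 11591 genes, and -0.03 in the ALDH sort.

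SPARC encodes osteonectin, a secreted collagen-binding protein that loosens the contact of cells with the matrix. It had log2 levels of 7.83 in CD133-positive and 6.74 in CD133-negative cells, against 7.40 in ALDH-positive cells and 8.02 in ALDH-negative cells. The low array here was CD133-negative and the highest was ALDH-negative, so the order of the arrays was not that of VIM. The difference was 1.09 (2.13-fold, rank 68 from the top) in the CD133 sort and -0.61 for ALDH. In the ALDH sort 9.47% of the genes above the floor differed by more than SPARC did, so this difference was not among the extreme ones.

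The promoters of VIM and SPARC are shown because these were the effectors at 2-fold in the same direction in the same sort. The windows run from 250 bases before to 50 bases after the annotated start and come from RefSeq (GRCh38.p14). VIM is at chr10:17227991-17228290 on the plus strand and SPARC at chr5:151686866-151687165 on the minus strand, both written 5′ to 3′ along the gene. Capitals mark 2 of the motifs searched on both strands: the general E-box CANNTG and the GC box GGGCGG.
VIM: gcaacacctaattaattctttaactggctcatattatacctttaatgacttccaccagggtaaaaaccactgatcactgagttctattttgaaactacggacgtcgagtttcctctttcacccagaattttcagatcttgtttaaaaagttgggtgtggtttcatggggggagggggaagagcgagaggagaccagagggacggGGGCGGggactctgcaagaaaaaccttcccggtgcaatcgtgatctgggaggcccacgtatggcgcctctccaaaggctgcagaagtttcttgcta
SPARC: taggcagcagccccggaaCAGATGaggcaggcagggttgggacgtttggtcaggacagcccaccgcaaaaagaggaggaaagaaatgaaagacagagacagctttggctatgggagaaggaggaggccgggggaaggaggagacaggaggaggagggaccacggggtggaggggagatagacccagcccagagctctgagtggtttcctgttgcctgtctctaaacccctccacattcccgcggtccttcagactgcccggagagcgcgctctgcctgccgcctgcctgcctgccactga

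The VIM window held 1 GC box, 46 bases before the start, and no E-box. The SPARC window held 1 E-box, 232 bases before the start, and no GC box. Over all 35116 windows of this length, 68.7% held a CANNTG and 45.0% a GGGCGG, so neither match is unusual. The stricter E-box CAGGTG, the form that SNAI and ZEB proteins recognise, was in neither window. It was found in 20.6% of all windows and is also counted within CANNTG. Of the 10 genes 6 had a window in the table (VIM, SPARC, FN1, CDH2, ZEB1 and ZEB2), and among these CAGGTG occurred only in ZEB1, in 2 of its 7 windows. The base composition of the pair also differed, at 48.0% G and C for VIM and 61.3% for SPARC, against a median of 58.7% over all windows. A match is a description of the letters and not a binding site, and no match says only that the letters are not in the window.

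The cadherins are the adhesion molecules whose exchange is the textbook sign of EMT, with CDH2 (N-cadherin) taking the place of CDH1 (E-cadherin). CDH2 had log2 levels of 9.49 in CD133-positive and 8.76 in CD133-negative cells, against 8.75 in ALDH-positive cells and 9.08 in ALDH-negative cells. CDH1 had 8.34 in CD133-positive and 8.24 in CD133-negative cells, against 8.46 in ALDH-positive cells and 8.90 in ALDH-negative cells. CDH2 was highest on the CD133-positive array and CDH1 on the ALDH-negative array.

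In the CD133 sort CDH2 differed by 0.73 and CDH1 by 0.10. CDH2 thus differed by 0.63 more than CDH1, and both were on the same side of 0. Both were lower in ALDH-positive cells, with differences of -0.33 for CDH2 and -0.44 for CDH1, which leaves 0.10 between them. At 1.5-fold CDH2 joined VIM and SPARC in the CD133 sort, where 2.74% of genes above the floor were higher by that much and 1.89% lower. SPARC alone of the 10 reached 1.5-fold in the ALDH sort, lower in ALDH-positive cells, beside 4.15% of genes higher and 6.60% lower by that much. No cadherin exchange, with one higher and the other lower, appeared in either sort.

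FN1 encodes fibronectin, the matrix glycoprotein bound by integrins. Its log2 level was 11.38 in CD133-positive and 11.34 in CD133-negative cells, and 11.20 in ALDH-positive cells and 11.37 in ALDH-negative cells. The 4 arrays spanned 0.18, the smallest range among the 10 genes, and the differences were 0.04 and -0.17. With 1 array per group these differences do not show that the fractions had equal transcript.

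Of the 5 transcription factors SNAI1 and TWIST1 were above the floor on all arrays and the others at most on 1, and all 5 differences in the CD133 sort were below 0, that of SNAI1 turning to 0.02 after loess scaling. SNAI2 (Slug), a zinc-finger repressor of CDH1, had log2 levels of 4.13 in CD133-positive and 5.27 in CD133-negative cells, against 4.85 in ALDH-positive cells and 4.29 in ALDH-negative cells. Only the CD133-negative array reached the floor. The measured difference of -1.15 in the CD133 sort is therefore taken against a value below the floor. Set against the floor in place of the dimmer array, SNAI2 was 1.22-fold lower in the CD133-positive fraction. The floor is a median and not a detection limit, so this gives no bound on the size of the difference. In the ALDH sort both arrays were below the floor, with a difference of 0.56 that has no order.

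SNAI1 (Snail) is a repressor of CDH1 of the same family, and its levels had another order. Its log2 level was 5.75 in CD133-positive and 5.76 in CD133-negative cells, and 6.11 in ALDH-positive cells and 6.42 in ALDH-negative cells. Both arrays of the ALDH sort were above both arrays of the CD133 sort, while the fractions differed by -0.01 in the CD133 sort, or 0.02 after loess scaling, and by -0.31 in the ALDH sort. SNAI1 was the 1 gene of the 10 whose differences had the same sign in both sorts. The labels do not say whether the sorts were prepared together, so sort and preparation cannot be told apart in that gap.

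TWIST1, a basic helix-loop-helix factor that also acts in mesoderm, was above the floor on all 4 arrays. Its log2 level was 5.40 in CD133-positive and 5.51 in CD133-negative cells, against 5.61 in ALDH-positive cells and 5.36 in ALDH-negative cells. The differences of -0.11 and 0.24 were exceeded in size by 65.6% and 47.5% of the genes above the floor in the CD133 and ALDH sorts.

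ZEB1 and ZEB2 are zinc-finger and homeobox repressors that share CDH1 and the miR-200 genes as targets. ZEB1 had log2 levels of 4.36 in CD133-positive and 4.82 in CD133-negative cells, against 5.15 in ALDH-positive cells and 4.88 in ALDH-negative cells, and reached the floor in ALDH-positive cells only. ZEB2 had 3.59 in CD133-positive and 3.89 in CD133-negative cells, against 3.97 in ALDH-positive cells and 3.68 in ALDH-negative cells, below the floor throughout. ZEB1 differed by -0.47 and 0.27 and ZEB2 by -0.30 and 0.29 in the CD133 and ALDH sorts. When dimmer values were raised to the floor, ZEB1 kept only a difference of 0.17 in the ALDH sort, and ZEB2 had none. The dimmer probe of ZEB2 gave -0.30 in the CD133 sort and -0.04 for ALDH.

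The miR-200 microRNAs that target ZEB1 and ZEB2 fall into 2 seed groups, shown because a shared seed is what gives them shared targets. The mature sequences are from RefSeq (GRCh38.p14), 5′ to 3′, with the seed, bases 2 to 8, in capitals.
hsa-miR-200b-3p: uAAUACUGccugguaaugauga
hsa-miR-200c-3p: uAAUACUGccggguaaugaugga
hsa-miR-429: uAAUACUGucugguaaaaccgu
hsa-miR-200a-3p: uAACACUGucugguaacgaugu
hsa-miR-141-3p: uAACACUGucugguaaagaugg

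The first 3 share the seed AAUACUG and the other 2 the seed AACACUG. All are on plus strands: miR-200b-3p at chr1:1167160-1167181, miR-200a-3p at chr1:1167916-1167937, miR-429 at chr1:1169055-1169076, miR-200c-3p at chr12:6963742-6963764 and miR-141-3p at chr12:6964155-6964176. The probes of all 5 genes were below the floor on every array. The CD133 differences ran from -0.25 (MIR200C) to 0.07 (MIR429), and the ALDH differences from -0.08 (MIR141) to 0.35 (MIR200C). Mature microRNA was not measured separately, so these probes say little about the level of the family beside its ZEB targets.

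**Figure D2:**
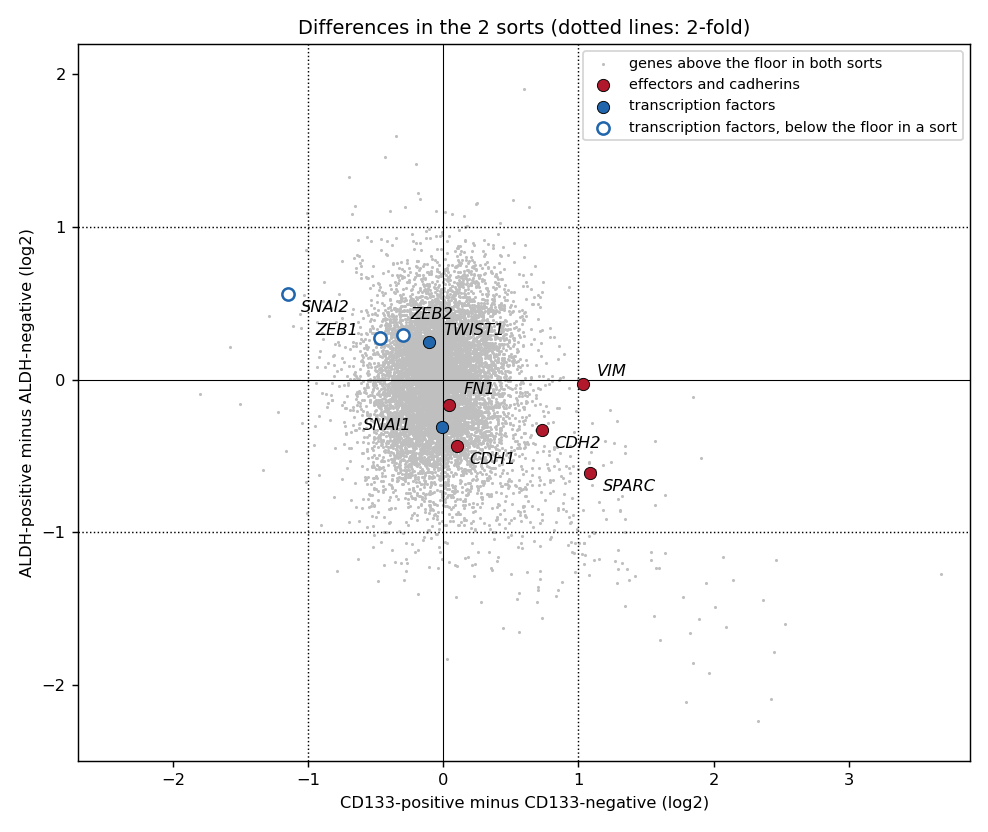
Difference in the CD133 sort (x axis, log2) against the difference in the ALDH sort (y axis, log2) for the 10 genes, over the 11293 genes above the floor in both sorts in grey. Filled circles are above the floor in both sorts, open circles are below it in a sort, and dotted lines mark 2-fold. SPARC, VIM and CDH2 lie to the right of most genes, SNAI2 to the left as an open circle, and the remaining genes sit in the central cloud or beside it.

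Set side by side, the effectors and the factors mostly fell on opposite sides of 0, within a span that includes many small values. All 5 effector and cadherin genes were higher in CD133-positive cells (median 0.73), and all 5 were lower in ALDH-positive cells (median -0.33), though VIM turned to 0.02 there after a second quantile normalization. The 5 factors were lower in CD133-positive cells (median -0.30), with SNAI1 above 0 under other scalings, and 4 of 5 were higher in ALDH-positive cells (median 0.27), SNAI1 being the exception. Over all genes 49.0% were higher and 50.9% lower in CD133-positive cells, and 53.8% were higher and 46.1% lower in ALDH-positive cells. Only 3 of the 5 factors were above the floor in each sort. Several of the differences are near 0, so the signs carry little weight one by one. The factor medians are the values of ZEB2, below the floor throughout, and of ZEB1, which reached it on 1 array. With values raised to the floor, ZEB1 and ZEB2 had no difference in the CD133 sort, and ZEB2 and SNAI2 none in the ALDH sort. The sorts gave opposite signs for 9 of the 10 genes, beside 46.4% of all genes, and for 6 of the 7 above the floor in both sorts, beside 48.5%. The grouping by role was made with these values known.

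The order of the arrays can be set beside PROM1, the gene of the sorted CD133 protein. PROM1 had log2 levels of 9.0 in CD133-positive and 5.32 in CD133-negative cells, against 7.11 in ALDH-positive cells and 8.39 in ALDH-negative cells. ALDH-positive cells were thus the ones with less PROM1 in the ALDH sort (-1.28), and the CD133-negative array was the lowest of the 4. VIM had the same order of the 4 arrays as PROM1, although its lowest 3 lay close together and its order within the ALDH sort turned under other scalings. SPARC had the same lowest array and the same next one, with the upper ones exchanged. Among genes of the sorted enzyme activity, ALDH1A1 differed by 0.04 and ALDH2 by 0.10 in the ALDH sort. ALDH1A3 differed by 0.45, higher in ALDH-positive cells, or 0.15 against the floor. None reached 1.5-fold, and the ALDH directions rest on the labels.

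Of the hepatocyte markers, 7 of 7 measured were above the floor on all 4 arrays. Their levels were not all alike between fractions: in the CD133 sort TTR differed by 0.995 and APOA1 by -0.78. In a bulk sample more cells of a kind and more transcript per cell cannot be told apart, which applies to VIM and SPARC first. Of 12 markers of fibroblasts and stellate cells, the mesenchymal cells of liver, 6 reached the floor on at least 1 array (PDGFRB, PDGFRA, COL1A1, COL1A2, COL3A1 and DES). Of the matrix genes in this list, DCN and LUM were far below it on every array, at 2.63 to 2.85 and 2.37 to 2.91. COL1A1, COL1A2 and COL3A1 were above it on all 4 arrays. They differed by 0.23, 0.40 and 0.39 in the CD133 sort and by -0.13, 0.06 and 0.17 in the ALDH sort. The summed level of the 12 on the linear scale was 407 in CD133-positive and 380 in CD133-negative cells, and 432 in ALDH-positive cells and 412 in ALDH-negative cells. Of 7 endothelial, 8 leukocyte and 2 red cell markers measured, 2, 4 and 0 reached the floor on at least 1 array. The leukocyte sum was 473 in CD133-positive and 587 in CD133-negative cells, and 556 in ALDH-positive cells and 475 in ALDH-negative cells. Bright genes weigh most in such a sum. LYZ differed by -0.69 and 1.33 in the CD133 and ALDH sorts, with CD14 and NKG7 on the same sides. CD68 was on the other sides, at 0.07 and -0.77. PTPRC, CD3E, MS4A1 and CSF1R were below the floor on every array. The endothelial sum was 107 in CD133-positive and 99.5 in CD133-negative cells, and 115 in ALDH-positive cells and 144 in ALDH-negative cells. The part of any of these marker levels in the results was not tested.

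The wider programme was read in 12 lists of related genes, of which 179 different genes were measured. In the CD133 sort 9 of the 130 above the floor were higher by 2-fold or more and 0 lower in CD133-positive cells, beside the 0.716% and 0.164% of all genes given above. In the ALDH sort 0 of 133 were higher by 2-fold or more and 5 lower in ALDH-positive cells, beside 0.278% and 1.30%. By any amount, 125 of the 179 were higher in CD133-positive cells and 88 in ALDH-positive cells, beside 49.0% and 53.8% of all genes. The counts by list below are to be read beside these shares. The lists were chosen with earlier results of these data known, so these counts describe the lists and do not show enrichment. Both epithelial and mesenchymal genes were among those higher in CD133-positive cells.

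Among mesenchymal filament and contractile genes, 13 of 13 were higher in CD133-positive cells (median 0.32), and 7 of 13 in ALDH-positive cells (median 0.00, or -0.09 after loess scaling). TAGLN, the actin-binding protein SM22 of smooth muscle, was the 1 member at 2-fold. Its log2 level was 6.21 in CD133-positive and 5.20 in CD133-negative cells, and 5.09 in ALDH-positive cells and 5.12 in ALDH-negative cells, so it was high on the CD133-positive array alone, as VIM was. The contractile gene ACTA2, a marker of myofibroblasts named after its values were seen, was below the floor on all 4 arrays. MYL9 (0.74), TPM2 (0.56) and CNN1 (0.49), also named after their values were seen, were above it in the CD133 sort.

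Among relatives of SPARC, 5 of 7 were higher in CD133-positive cells (median 0.28), and 4 of 7 in ALDH-positive cells (median 0.32). Only 3 of the 7 were above the floor in each sort, and both medians came to 0 when dimmer values were raised to the floor. FSTL1, a secreted glycoprotein of the family, had log2 levels of 7.48 in CD133-positive and 5.63 in CD133-negative cells, against 6.11 in ALDH-positive cells and 6.22 in ALDH-negative cells. It was 3.61-fold higher in CD133-positive cells (rank 16 from the top), a larger difference than that of SPARC.

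Of 33 matrix and matrix-remodelling genes, 27 were higher in CD133-positive cells (median 0.23), and 20 in ALDH-positive cells (median 0.06). FBN1, the fibrillin of microfibrils, had log2 levels of 6.31 in CD133-positive and 4.67 in CD133-negative cells, and 5.004 in ALDH-positive cells and 5.76 in ALDH-negative cells. Its dimmer array in the CD133 sort was below the floor. Set against the floor, FBN1 was 2.51-fold higher in the CD133-positive fraction. TIMP1, an inhibitor of matrix metalloproteinases, had 6.89 in CD133-positive and 5.80 in CD133-negative cells (2.13-fold), and 6.47 in ALDH-positive cells and 6.94 in ALDH-negative cells. Both were higher in CD133-positive than in CD133-negative cells and lower in ALDH-positive cells than in ALDH-negative ones, like SPARC.

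Of 16 receptors for fibronectin and collagen, 11 were higher in CD133-positive cells (median 0.08), and 5 in ALDH-positive cells (median -0.09). Of the 16, 11 and 10 were above the floor in the CD133 and ALDH sorts. The medians came to 0 and -0.01 when dimmer values were raised to it. ITGB8, the integrin subunit that pairs with the alpha-v chain and binds latent TGF-beta, had log2 levels of 5.66 in CD133-positive and 4.13 in CD133-negative cells, against 4.87 in ALDH-positive cells and 5.997 in ALDH-negative cells. With the dimmer array at the floor, it was 1.60-fold higher in the CD133-positive fraction and 2.02-fold lower in the ALDH-positive fraction. The subunits of the main fibronectin receptor, ITGA5 (-0.41) and ITGB1 (-0.05), were among the 5 lower in CD133-positive cells. ITGAV (0.66) and ITGA9 (0.52) were among the 11 higher there. All of these were named after their values were seen.

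Of 20 tight junction, polarity and epithelial surface genes, 16 were higher in CD133-positive cells (median 0.19), and 17 were lower in ALDH-positive cells (median -0.29). Several of these are known to be repressed by EMT factors, and most were on the same side as VIM and SPARC in the CD133 sort. CDH17, the liver-intestine cadherin, had log2 levels of 9.44 in CD133-positive and 7.35 in CD133-negative cells, against 8.19 in ALDH-positive cells and 9.82 in ALDH-negative cells. KRT19, a keratin of bile duct epithelium, differed by 1.34 and -0.44, SPINT1, an inhibitor of epithelial surface proteases, by 1.20 and -0.91, and EPCAM by 1.10 and -1.003 in the CD133 and ALDH sorts. The other probe of EPCAM gave 0.77 and -0.68. CLDN4, a tight junction claudin named after its values were seen, was the third gene lower by 2-fold or more in ALDH-positive cells, at -1.08, beside CDH17 and EPCAM.

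Of 14 adherens junction and desmosome genes, 10 were higher in CD133-positive cells (median 0.11), and 11 were lower in ALDH-positive cells (median -0.18). None reached 2-fold in either sort. The desmosomal cadherins DSG2 (0.06 and -0.90) and DSC2 (0.16 and -0.78) differed most, in the ALDH sort. Of 12 transcription factors and splicing regulators that guard the epithelial state, 10 were higher in CD133-positive cells (median 0.28, or 0.04 when dimmer values were raised to the floor), and 8 were lower in ALDH-positive cells (median -0.12). KLF4 had log2 levels of 6.12 in CD133-positive and 5.14 in CD133-negative cells, against 6.03 in ALDH-positive cells and 7.10 in ALDH-negative cells, and was 2.10-fold lower in ALDH-positive cells.

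**Figure D3:**
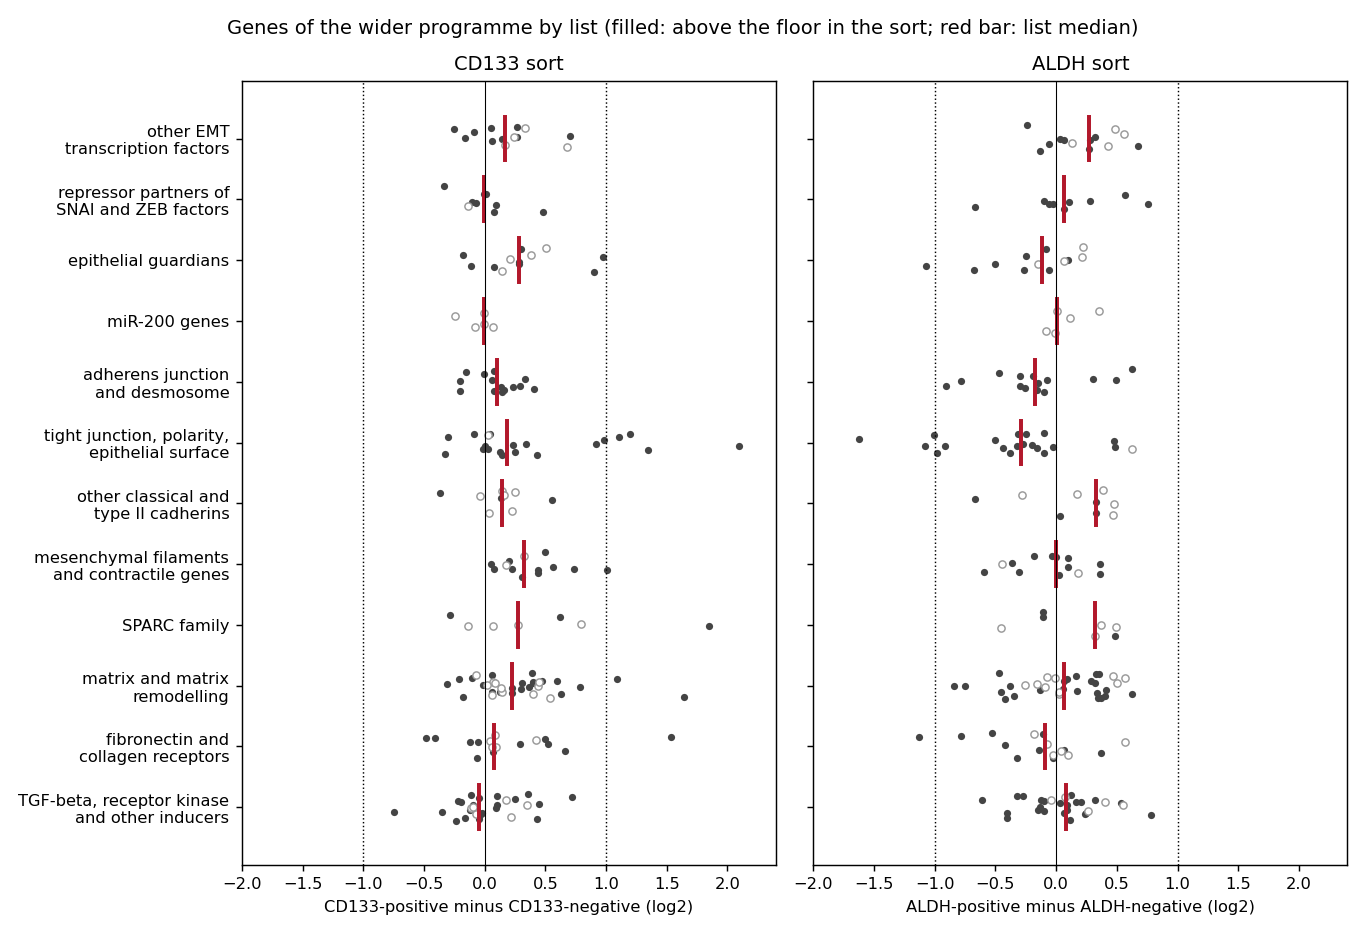
Difference of each measured gene (points, log2, x axis) in 12 lists of genes around EMT (rows), in the CD133 sort on the left and the ALDH sort on the right. Filled points are above the floor in the sort, open points below it, red bars are list medians and dotted lines mark 2-fold. In the CD133 sort the points past 2-fold are all to the right and come from the epithelial surface, mesenchymal filament, SPARC family, matrix and receptor lists, while in the ALDH sort the 5 past 2-fold are all to the left.

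Of 13 further EMT transcription factors, 10 were higher in CD133-positive cells and 10 in ALDH-positive cells, with medians of 0.17 and 0.27, and none reached 2-fold. Both medians came to 0 when dimmer values were raised to the floor. SOX4, a high-mobility-group factor, differed by 0.70 and -0.06, and SNAI3 by 0.26 and 0.68 in the CD133 and ALDH sorts. Of 9 repressor partners of the SNAI and ZEB proteins, 4 were higher in CD133-positive and 5 in ALDH-positive cells, with medians of -0.003 and 0.07, of which the first turned to 0.06 after loess scaling. The corepressor CTBP2 differed by 0.75 in the ALDH sort, or 0.46 against the floor, and AJUBA, a LIM protein that binds SNAI factors, by -0.66.

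Of 28 genes of TGF-beta and other inducing pathways, 11 were higher in CD133-positive and 17 in ALDH-positive cells, with medians of -0.05, or 0.02 after loess scaling, and 0.08, and none reached 2-fold. The ligand gene TGFB2 differed by 0.72 and 0.32, and the receptor gene PDGFRA by -0.75 and 0.78. The dimmer array of PDGFRA was below the floor in both sorts. Set against the floor, PDGFRA was 1.36-fold lower in the CD133-positive fraction and 1.48-fold higher in the ALDH-positive fraction. Of 9 further classical and type II cadherins, 7 were higher in CD133-positive and 7 in ALDH-positive cells, with medians of 0.14 and 0.33. At most 4 were above the floor in a sort, and both medians came to 0 when dimmer values were raised to it. CDH6, a type II cadherin of fetal kidney, differed by 0.56 and 0.33. CDH5, the cadherin of endothelium, lay below the floor on both arrays of the CD133 sort and differed by -0.67 in the ALDH sort, or -0.38 against the floor.

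VIM and SPARC were then set against all 12176 other genes that reached the floor on at least 1 array, by the root mean square distance between log2 values centred on each gene's mean over the 4 arrays. Likeness over 4 arrays is weak, since many genes can share a pattern of 4 values, and it says nothing of shared control. PRSS23 (distance 0.0975), TAGLN (0.105) and SIPA1L2 (0.117) were closest to VIM. MAP7 (0.0303), TTR (0.0366) and TIMP1 (0.0583) were closest to SPARC. No neighbours are given for SNAI2, which was below the floor on 3 of the 4 arrays.

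The neighbours of SPARC included both a matrix gene, TIMP1, and the liver product transthyretin, TTR, which differed by 0.99 in the CD133 sort and by -0.58 for ALDH. The microtubule-binding protein gene MAP7 differed by 1.10 and -0.69, with its CD133-negative array below the floor and 0.84 against the floor.

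**Figure D4:**
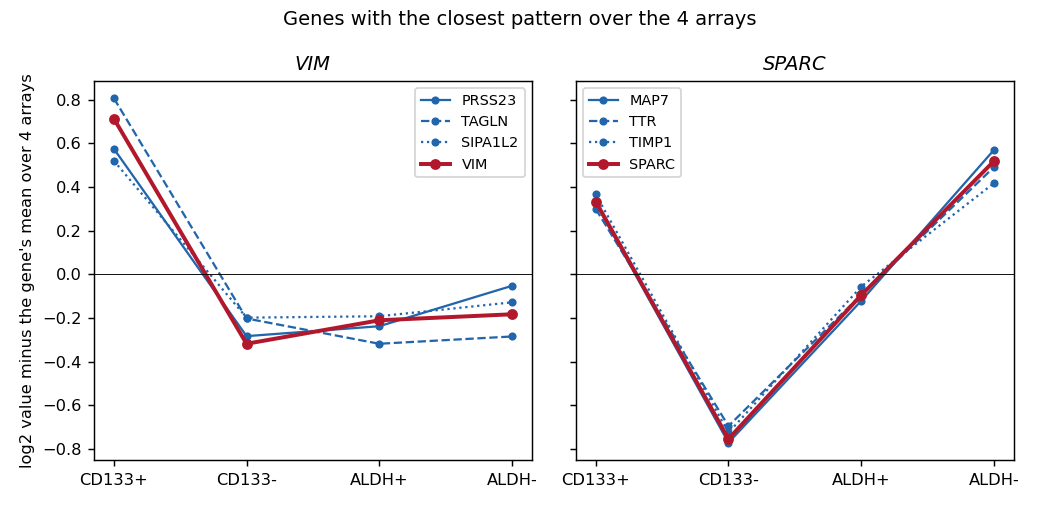
Log2 value minus the gene's own mean over the 4 arrays (y axis) on each array (x axis) for VIM and SPARC in red and the 3 genes closest to each in blue. The VIM panel is high on the CD133-positive array alone, and the SPARC panel is lowest on the CD133-negative array.

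The arrays themselves differed little as wholes. Their median log2 values lay between 4.92 and 5.04, and pairs of arrays correlated at 0.982 to 0.989 across probes, so no array was a copy of another. A gene ranged over 0.46 across the 4 arrays in the median of all genes, and the median of the 10 EMT genes was 0.70. SPARC (1.27), SNAI2 (1.15) and VIM (1.03) had the widest ranges among the 10. Precision is limited by the number of arrays, and whether neighbours in an order of 4 arrays differ beyond the spread of replicates cannot be stated.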

How the data were processed

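Each of 4 sorted Huh7 fractions gave Trizol-extracted RNA for 1 Affymetrix array (biotin label), per the labels' protocols. What the authors deposited was RMA output, as the submitters' processing notes name it, and its range of 0.556 to 13.5 identifies a log2 scale. Software version, build and any later filter are not given in the sources used here. RMA pulls arrays towards one distribution and compresses differences of dim probes.

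Of 28869 probes, 19310 had exactly 1 gene symbol in the platform annotation, 1752 had several and 7807 were not listed. RefSeq names (GRCh38.p14) were found by gene identifier for 19279. A gene took its probe with the highest mean, which left 18377 genes; among the 10 only ZEB2 had more than 1 probe. No probe with several symbols named any of the 10.

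Differences were positive minus negative within a sort, with no test since each group is 1 array. Threshold and floor are stated in the results. Named were all 10 genes, PROM1, in each list at most 4 genes past 2-fold, or failing that the 2 largest differences above the floor, and the 3 closest genes per member at 2-fold, left out for SNAI2, which was below the floor on 3 arrays. The members and lists were chosen with earlier results of these data known. Alternatives were a 1.5-fold threshold, dropping the floor, raising it to the 75th percentile (6.48), values raised to the floor, the mean over probes, centring, a second quantile normalization and loess (span 0.4). The scripts were tested on simulated data. Sequences came from RefSeq tables. Python 3.11.15, pandas 2.3.3, statsmodels 0.14.6 and matplotlib 3.10.9 were used.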

Additional observations from a re-analysis of the deposited data

Results flagged for a closer look

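The sorts gave opposite signs for 16 genes named as members, list genes, neighbours or PROM1. Each was above the floor and differed by 2-fold or more in a sort. They were 3 of the 10 EMT genes and 13 others. With 1 array per group this was not tested, and 46.4% of all genes had opposite signs. That share is not a like comparison, since the 16 genes were picked for a large difference. The CD133 difference minus the ALDH difference was 1.06 for VIM and 1.70 for SPARC. VIM had almost none of it from the ALDH sort (-0.03), where its sign turned under other scalings (up to 0.02). For SNAI2 it was -1.71, which rests on values below the floor. With these raised to the floor it was -0.29, all from the CD133 sort, so the opposite sign of SNAI2 is not measured. The value was 3.72 for CDH17, 1.78 for KRT19, 2.11 for SPINT1, 2.11 for EPCAM, 2.002 for CLDN4 (1.84 with the floor) and 2.05 for KLF4 among epithelial genes. It was 1.04 for TAGLN, 1.96 for FSTL1, 2.39 for FBN1 (2.08 with the floor), 1.57 for TIMP1 and 2.67 for ITGB8 (1.69 with the floor) among mesenchymal, matrix and receptor genes. TAGLN (-0.03) and FSTL1 (-0.11) were, like VIM, close to 0 in the ALDH sort. PROM1 had 4.96, its protein being the marker of the CD133 sort, and MAP7, chosen for its likeness to SPARC, had 1.79 (1.53 with the floor).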

How the results depend on the processing

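VIM and SPARC stayed past 2-fold in the CD133 sort under centring, a second quantile normalization and loess. With the main run included, their differences were 1.03 to 1.09 and 1.09 to 1.16. The other alternatives could not take them below 2-fold, since each gene has 1 probe and all its levels are above 6.48. SNAI2 did not stay at 2-fold: 0 of the 10 genes were lower in the CD133 sort with the floor at the 75th percentile or with values raised to the floor, the last of which left it a difference of -0.29. Its 4 levels lie below the stricter floor. At 1.5-fold 1 of the 10, SPARC, was lower in ALDH-positive cells. At that threshold, of 130 genes of the wider lists above the floor 21 were higher and 1 lower in CD133-positive cells, beside 2.74% and 1.89% of all genes. Of 133, 5 were higher and 17 lower in ALDH-positive cells, beside 4.15% and 6.60%. These lists, too, were chosen with earlier results of these data known. Of 386 recomputed values, 368 kept their place and 18 moved by more than the median size of a difference in the sort, or by more than 1.5 times for a count. Many of the 386 could not move, so the tally overstates how stable the results are. Dropping the floor or setting it at the 75th percentile leaves every difference and list median as it was. The mean over probes leaves a gene with 1 probe as it was. Among the 10 genes no difference at 2-fold changed sign in the sort where it reached 2-fold. No scaling moved the median of all genes by 0.1 on the log2 scale. The sign of SNAI1 in the CD133 sort (up to 0.02) and of VIM in the ALDH sort (up to 0.02) turned under loess and a second quantile normalization. No paired analysis was possible because each group holds 1 array and no result comes from a test. Without replicates no value has an error, and the 5 transcription factors, mostly near the floor, are the least certain.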
